A study of Mus musculus with 12 samples.

Results

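Eyes of mice that had fasted and received NaIO3 (IF + NaIO3) were compared with eyes of mice that had fed freely and received only PBS (AL + PBS), across all genes of the deposited count table. The question was what still set the fasted, injured eyes apart from the uninjured, freely fed state. Libraries were put in their groups by their labels, and the groups hold 6 of the 12 libraries of the series, 3 in each. Of 21930 genes in the table, 15419 passed a filter on low counts and were tested.

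The mice of every group were wild-type C57BL/6 J males whose diet started at 8 weeks of age and ran for 12 weeks, and each diet was kept up between the injection and the taking of tissue. AL + PBS mice had food at all times and an intraperitoneal injection of PBS. IF + NaIO3 mice were fasted on alternate days, also after they received 25 mg/kg NaIO3 by the same route, and RNA was taken from eye cups 7 days after the injection. The other groups, IF + PBS and AL + NaIO3, changed the diet or the injection alone. They are not in the test of the 6 libraries, and they serve below to place a value and in the fits of 3 and 4 groups. Both diet and injection differ between IF + NaIO3 and AL + PBS, so their parts in any difference cannot be told apart in this comparison. The labels name 3 samples a group without saying that each is a separate animal, so the p-values measure the spread between these samples.

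NaIO3 is an oxidant that damages the retinal pigment epithelium (RPE), the pigmented cell layer behind the photoreceptors that recycles the light-absorbing retinoid and takes up shed outer segments. Melanin is made in melanosomes by tyrosinase and its relatives, both in the RPE and in the melanocytes of the choroid. Rods and cones turn light into a voltage change through opsin, transducin, a phosphodiesterase and a cGMP-gated channel, and arrestins switch the opsins off. Antigen presentation runs through MHC class I molecules, which nearly all cells carry, and MHC class II molecules, which mark macrophages, dendritic cells and B cells and need the invariant chain Cd74 to assemble.

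The 6 libraries held between 29468444 and 43046950 counts, and values are given as CPM, counts relative to the library total after scaling by TMM factors of edgeR. At these depths 3 counts, the limit that a count of 0 allows, equal 0.0708 to 0.104 CPM, which covers counting error only. The tissue is labelled RPE, choroid and sclera, yet Sag, the rod arrestin, was at 4365 to 6782 CPM in the 6 libraries, so RNA of the neural retina was present in each. AL + PBS replicate 2 held lens RNA (Cryaa at 142 CPM, against 2.72 and 1.94 in the other two). Mitochondrially encoded genes took 4.02% to 4.69% of the counts in AL + PBS and 5.41% to 7.44% in IF + NaIO3.

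Few genes separated the groups. By the quasi-likelihood test of edgeR, fitted to these 6 libraries, 7 of 15419 genes (0.0454%) passed an adjusted p under 0.05 and a fold of at least 1.5, of which 4 rose and 3 fell in IF + NaIO3. The median log2 fold change over all tested genes was 0.00 and the median of its absolute value 0.14. At an unadjusted p under 0.05, 935 genes (6.06%) were higher and 941 (6.1%) were lower in IF + NaIO3. The 3 values of IF + NaIO3 lay above the 3 of AL + PBS for 1294 genes (8.39%) and below them for 1450 (9.4%). These shares are the background against which the gene groups below are read.

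The count of calls depended on the model. A fit of the 4 groups, in which the more variable AL + NaIO3 libraries enter the estimate of the spread, called 0 of 15970 genes (0%), with 553 genes at an unadjusted p under 0.05 and a smallest adjusted p of 0.98, while DESeq2 on the same 12 libraries called 6. A fit of 9 libraries that leaves out AL + NaIO3 called 0 of 15601 genes, with 1501 at an unadjusted p under 0.05. DESeq2 on the 6 libraries called 75 of 12984 genes (0.578%), 33 higher and 42 lower, and all 7 edgeR calls were among them. The 7 genes named next were called on the 6 libraries and in neither larger edgeR fit, where their adjusted p lay between 0.98 and 0.99 for 4 groups and between 0.12 and 0.19 for 3.

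Hipk1, a nuclear serine/threonine kinase (chr3:103739815-103791563, GRCm38), had the largest of the 7 changes. It stood at 110, 118 and 118 CPM in the AL + PBS libraries and at 11, 16.9 and 23 CPM in the IF + NaIO3 libraries, from 3449 to 5001 and from 383 to 665 counts. The groups were far from overlapping, and Hipk1 fell by 2.78 on the log2 scale (SE 0.20, edgeR adjusted p = 0.000208), 6.85-fold lower by counts. In the authors' FPKM values, scaled for gene length and library depth, the fold was smaller. These FPKM were 12.01, 14.67 and 13.01 in AL + PBS and 2.31, 3.38 and 4.89 in IF + NaIO3. A low level also occurred without NaIO3, since IF + PBS replicate 1 had 17.6 CPM while replicates 2 and 3 had 98.2 and 101 CPM. The AL + NaIO3 libraries, at 107 to 125 CPM, lay with AL + PBS. Hipk1 thus had separate levels within the IF + PBS group, and whether the counting of reads had a part in its low level was not tested. The overlapping gene Gm10964 took few reads, with 99.4% to 100% of the sum of both on Hipk1 in each of the 12 libraries.

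A pair of overlapping predicted genes on chromosome 10 moved in opposite directions. Gm48552 (chr10:81389005-81391267) fell from 124, 111 and 109 CPM in AL + PBS to 33.1, 37.8 and 45.8 CPM in IF + NaIO3, a log2 change of -1.56 (SE 0.12, edgeR adjusted p = 0.000208). Gm48551 (chr10:81384466-81391560), which spans it, rose from 48.5, 61.7 and 60.7 CPM to 163, 162 and 134 CPM, a log2 change of 1.42 (SE 0.11, edgeR adjusted p = 0.000243). Their sum differed little, with 170 to 173 CPM in AL + PBS and 180 to 200 CPM in IF + NaIO3, while the share counted on Gm48551 was 28.1% to 35.8% in the first group and 74.5% to 83.1% in the second. Reads of the shared stretch can be split between the genes in counting, so each value alone is uncertain. The same split was seen outside NaIO3 in IF + PBS replicates 1 and 2, with 74.2% and 82.8% of the sum on Gm48551, and not in replicate 3, with 32.9%. In AL + NaIO3 the share was 35.3% and 33.6% in replicates 1 and 2 and 64.1% in replicate 3. Gm48551 also overlaps Dohh, deoxyhypusine hydroxylase, which was at 34.8, 37.9 and 33.8 CPM in AL + PBS and 27.1, 22.5 and 27.1 CPM in IF + NaIO3 (log2 difference -0.48, edgeR adjusted p = 0.185, DESeq2 adjusted p = 0.0169), so reads can be split among 3 genes here.

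The remaining 4 called genes had smaller changes, and none of them overlapped between the groups. Dusp4, a phosphatase that inactivates MAP kinases (chr8:34807297-34819894), stood at 32.9, 34.4 and 34.8 CPM in AL + PBS and at 17.8, 15.7 and 19.4 CPM in IF + NaIO3, and fell by 0.95 on the log2 scale (SE 0.11, edgeR adjusted p = 0.00829). Pcdh15, a long cadherin that links hair cell stereocilia and is also found in photoreceptors (chr10:73099342-74649737), stood at 204, 215 and 242 CPM against 357, 374 and 363 CPM, and rose by 0.72 (SE 0.08, edgeR adjusted p = 0.00556). The IF + NaIO3 values of Pcdh15 lay close together, while IF + PBS spread from 253 to 412 CPM, wholly above AL + PBS. For Dusp4, the IF + PBS libraries stood at 30.4, 21.8 and 21.0 CPM, all below AL + PBS and above IF + NaIO3.

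Cdcp3 (chr7:131174402-131306451) stood at 78.7, 75.3 and 81.3 CPM in AL + PBS and at 132, 157 and 176 CPM in IF + NaIO3, a rise of 0.98 on the log2 scale (SE 0.10, edgeR adjusted p = 0.0035). It lies inside the span the files give for Fgfr2, whose own counts hardly differed (log2 difference -0.01). Ip6k2, a kinase that turns inositol hexakisphosphate into a pyrophosphate form (chr9:108783796-108806337), stood at 94.1, 99.6 and 118 CPM against 221, 184 and 159 CPM, a rise of 0.85 (SE 0.12, edgeR adjusted p = 0.0481). As for Pcdh15, all 3 IF + PBS libraries exceeded all AL + PBS libraries for Cdcp3 (115 to 169 CPM) and for Ip6k2 (132 to 175 CPM).

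Single libraries decided several of these calls. Without IF + NaIO3 replicate 2, 3 genes were called, Hipk1, Gm48551 and Gm48552, and the adjusted p of Cdcp3, Pcdh15 and Dusp4 became 0.0521, 0.0564 and 0.0592, at log2 changes of 0.98, 0.71 and -0.87. Calls were also gained, with 55 genes called without IF + NaIO3 replicate 3, 17 without AL + PBS replicate 1 and 13 without IF + NaIO3 replicate 1. Dusp4 was also lost without AL + PBS replicate 2 or replicate 3 (adjusted p 0.055 and 0.0753), and Ip6k2 was lost without 5 of the 6 libraries taken out in turn. In the fit of 3 groups, IF + NaIO3 against IF + PBS gave an adjusted p between 0.108 and 0.696 for the 7 genes, so none passed the threshold there.

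**Figure D1:**
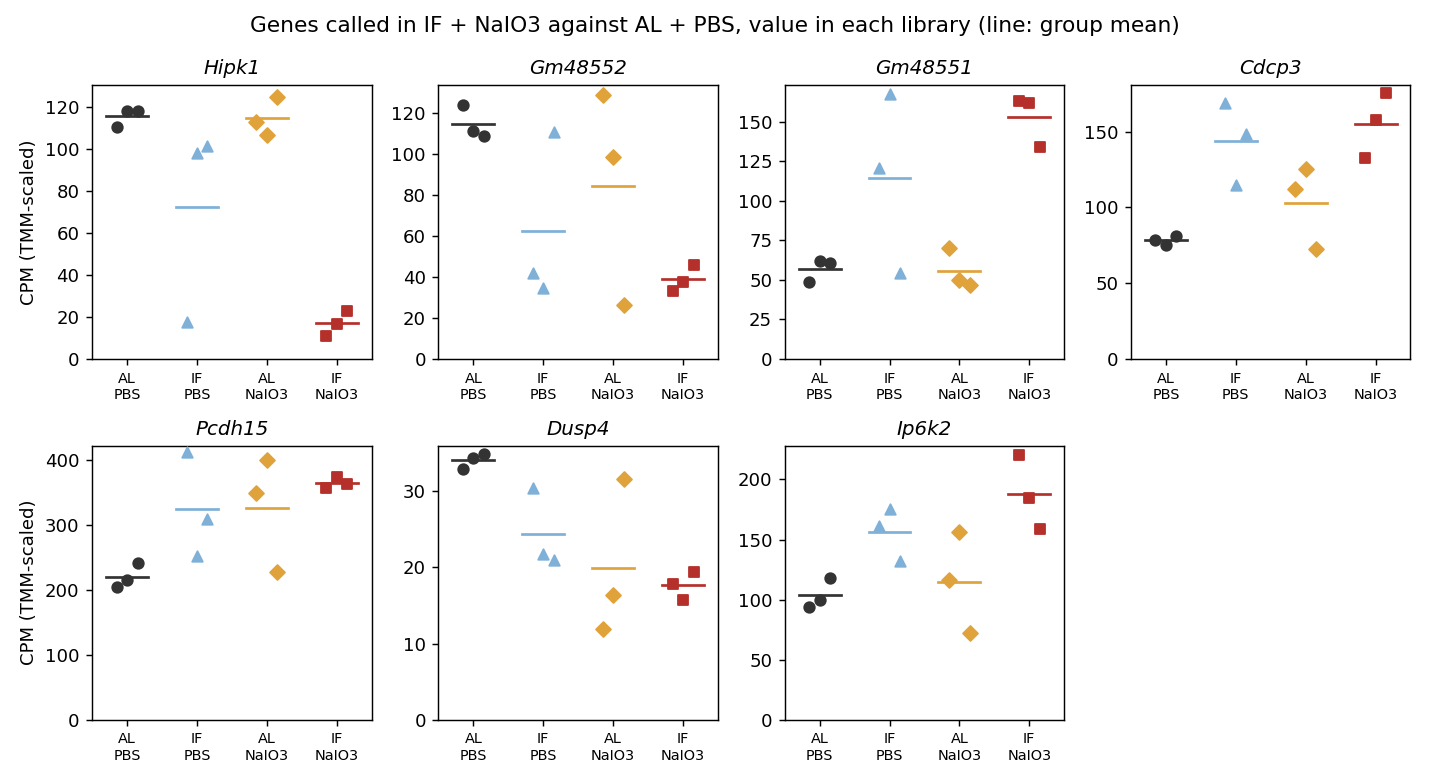
TMM-scaled CPM (linear axes from 0) of the 7 genes called by edgeR on the 6 libraries of IF + NaIO3 and AL + PBS, with 1 point for each library of the 4 groups and a line at each group mean. The 3 IF + NaIO3 points of each gene lie wholly above or below the 3 AL + PBS points, and IF + PBS replicate 1 of Hipk1, at 17.6 CPM, lies with IF + NaIO3.

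The genes of melanin synthesis were all lower in IF + NaIO3. The list held the enzymes Tyr, Tyrp1 and Dct, the fibril protein Pmel, its partner Mlana and the melanosome receptor Gpr143, and all 6 were tested. Their median log2 difference was -0.94 (range -1.35 to -0.61) against 0.00 over all genes, 5 had an unadjusted p under 0.05 and 5 did not overlap between groups. In the edgeR test of the 6 libraries by group, the adjusted p lay between 0.0948 and 0.537 and called none of them, a count that other settings changed, while DESeq2 called Pmel, Mlana, Tyr and Dct. In bulk tissue, fewer cells of a type and less RNA per cell cannot be told apart, here and in the lists that follow.

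Promoters of 3 of the 6 melanin genes were in the RefSeq table (GRCm38.p6, 250 bases before to 50 after the start), and they are shown because all 6 genes were lower. Capitals mark each match to CATGTG, the core of the M-box that MITF binds, or to its reverse complement CACATG. The search covered both strands, and 4650 of 32851 promoters of this length (14.2%) held the motif. The 3 promoters are given 5′ to 3′ on the gene's own strand, for Tyr chr7:87493463-87493762 (minus), Tyrp1 chr4:80833963-80834262 (plus) and Dct chr14:118052197-118052496 (minus).
Tyr: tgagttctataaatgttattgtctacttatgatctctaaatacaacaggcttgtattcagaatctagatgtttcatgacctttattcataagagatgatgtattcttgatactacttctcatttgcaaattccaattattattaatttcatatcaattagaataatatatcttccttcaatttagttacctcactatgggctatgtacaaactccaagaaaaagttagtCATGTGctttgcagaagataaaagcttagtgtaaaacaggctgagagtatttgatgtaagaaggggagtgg
Tyrp1: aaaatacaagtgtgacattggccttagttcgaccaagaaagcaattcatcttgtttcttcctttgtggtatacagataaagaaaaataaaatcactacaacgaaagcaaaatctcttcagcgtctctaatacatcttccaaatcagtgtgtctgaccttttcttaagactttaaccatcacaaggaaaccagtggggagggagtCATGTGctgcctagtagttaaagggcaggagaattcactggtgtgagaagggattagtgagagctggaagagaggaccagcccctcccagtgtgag
Dct: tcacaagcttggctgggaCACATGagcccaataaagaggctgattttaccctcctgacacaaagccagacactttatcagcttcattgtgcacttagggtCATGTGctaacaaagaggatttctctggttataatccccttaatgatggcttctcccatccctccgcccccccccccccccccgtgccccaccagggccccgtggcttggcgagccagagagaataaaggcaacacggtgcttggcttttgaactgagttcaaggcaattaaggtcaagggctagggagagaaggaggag
The match lay 21 bases before the start in Tyr and 46 before it in Tyrp1, and Dct had matches at 232 and 150 bases before the start. A match of these letters is a description and not a measured binding site.

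Tyr, the rate-limiting enzyme of melanin synthesis (chr7:87424771-87493512), stood at 11.6, 10.2 and 12.4 CPM in AL + PBS and at 5.94, 5.93 and 6.93 CPM in IF + NaIO3. The groups did not overlap and the IF + PBS libraries, at 7.96 to 9.22 CPM, lay between them. The log2 difference was -0.87 (SE 0.17, edgeR adjusted p = 0.123, DESeq2 adjusted p = 0.00167). Dct, which acts later in eumelanin synthesis (chr14:118012790-118052244), was the most abundant of the 6 per length, with 60.7 to 72.2 FPKM (values scaled for gene length and library depth) in AL + PBS against 1.38 to 1.69 FPKM for Tyr. Its CPM values were 182, 156 and 162 in AL + PBS and 132, 81.8 and 115 in IF + NaIO3, a log2 difference of -0.61 (SE 0.15, edgeR adjusted p = 0.198).

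Pmel, which forms the fibrils on which melanin is laid down (chr10:128704195-128720238), stood at 51.2, 28.3 and 40.1 CPM in AL + PBS and at 20.6, 12.1 and 14.3 CPM in IF + NaIO3. Its log2 difference of -1.35 (SE 0.23, edgeR adjusted p = 0.0948) was the largest of the list, and it was called by edgeR on the 6 libraries with no filter on low counts (adjusted p 0.0319) and without AL + PBS replicate 2 or IF + NaIO3 replicate 1. Mlana, the melanosome protein also known as MART-1, stood at 29.5, 19.3 and 15.7 CPM against 12.1, 6.09 and 8.97 CPM (log2 difference -1.25, SE 0.27, edgeR adjusted p = 0.159). Tyrp1 values did not overlap either, at 47.3, 25 and 35.5 CPM against 21.9, 12.9 and 18.5 CPM (log2 difference -1.02, SE 0.23, edgeR adjusted p = 0.176). Gpr143 was near 2 CPM in AL + PBS (1.91 to 2.14) and spread from 0.579 to 2.04 CPM in IF + NaIO3, so its groups overlapped.

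The summed level of the 6 genes was 324, 241 and 268 CPM in AL + PBS, 205, 170 and 287 CPM in IF + PBS and 194, 119 and 164 CPM in IF + NaIO3. AL + PBS replicate 1 was the highest and IF + NaIO3 replicate 2 the lowest, and IF + PBS overlapped both groups. The median log2 difference lay between -1.26 (without IF + NaIO3 replicate 1) and -0.81 (without AL + PBS replicate 1) when each library was left out. Of the 6 markers listed for melanocytes, Mlana, which is also in the melanin list, was the one lower at an unadjusted p under 0.05. The other 5, Sox10, Pax3, Kit, Ednrb and Mc1r, had log2 differences from -0.21 to 0.11, and Sox10 stood at 7.78, 9.30 and 7.98 CPM against 10.2, 5.04 and 6.44 CPM. The part of melanocytes in the melanin difference was not tested.

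Other melanosome genes were less uniform. Of 18 tested transporters and trafficking genes, 10 were lower and the median was -0.02, with 2 lower at an unadjusted p under 0.05. Those were Oca2, the melanosomal chloride channel, at 8.13, 7.96 and 7.75 CPM against 5.39, 3.64 and 3.95 CPM (log2 difference -0.88, edgeR adjusted p = 0.187, called by DESeq2), and Slc45a2, a melanosomal transporter (log2 difference -0.71, edgeR adjusted p = 0.347). Among the pigment cell transcription factors, Otx2 was 0.19 higher on the log2 scale (edgeR adjusted p = 0.367). Mitf was 0.27 higher, at 13.5, 4.04 and 16.5 CPM in AL + PBS against 14.6, 12.8 and 13.5 CPM in IF + NaIO3. Without AL + PBS replicate 2, the median of this list went from 0.01 to -0.13.

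RPE genes of the visual cycle, which turn spent retinoid back into 11-cis-retinal, were lower in part. Of 10 tested, 8 were lower, the median was -0.37, and 5 lower and 1 higher had an unadjusted p under 0.05. Lrat, which esterifies retinol, stood at 39.2, 35.8 and 45.2 CPM in AL + PBS and 30.3, 16.8 and 31.1 CPM in IF + NaIO3 (log2 difference -0.62, SE 0.20, edgeR adjusted p = 0.296, called by DESeq2). These groups did not overlap, and IF + PBS, at 44.4 to 61.1 CPM, lay above IF + NaIO3 and overlapped AL + PBS. Rgr, an opsin of the RPE and Müller glia, was at 546, 476 and 546 CPM in AL + PBS, 446, 223 and 394 CPM in IF + NaIO3 and 611 to 653 CPM in IF + PBS (log2 difference -0.56, edgeR adjusted p = 0.324).

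Rdh5, the 11-cis-retinol dehydrogenase, was at 119, 114 and 117 CPM against 103, 51.5 and 85.0 CPM (log2 difference -0.55, edgeR adjusted p = 0.322). Rpe65, the retinoid isomerase, overlapped between the groups at 113, 103 and 143 CPM against 132, 58.7 and 89.4 CPM (log2 difference -0.36, edgeR adjusted p = 0.558). In these 4 genes IF + NaIO3 replicate 2 was the lowest of the 6 libraries compared. The median of the list moved to -0.14 without it and to -0.59 without replicate 1. Rdh11, a retinol dehydrogenase, was 0.25 higher on the log2 scale without overlap (edgeR adjusted p = 0.322). The 16 RPE genes of transport, channels and phagocytosis had a median of -0.12, with 2 higher and 2 lower at an unadjusted p under 0.05. That median was -0.0085 without IF + NaIO3 replicate 2 and -0.18 without IF + NaIO3 replicate 1.

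**Figure D2:**
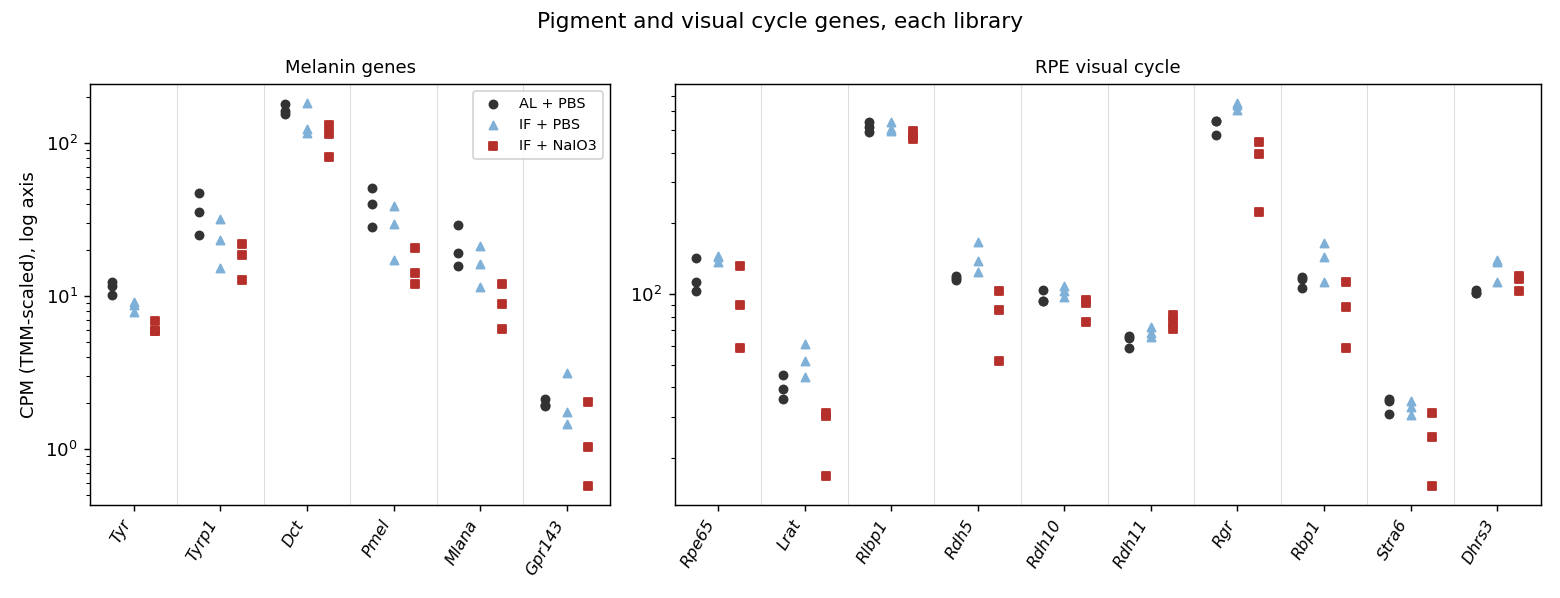
TMM-scaled CPM on log axes of the 6 melanin genes (left) and the 10 RPE visual cycle genes (right), 1 point per library for AL + PBS, IF + PBS and IF + NaIO3. The IF + NaIO3 points lie below the AL + PBS points for 5 of the 6 melanin genes, all but Gpr143, and the lowest Rpe65, Lrat, Rdh5 and Rgr points are IF + NaIO3 replicate 2 (58.7, 16.8, 51.5 and 223 CPM).

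Cone genes had no shared direction. Of 10 tested genes of cone phototransduction, 5 were higher and 5 lower, with a median log2 difference of 0.05, and 4 were higher at an unadjusted p under 0.05. Arr3, the cone arrestin, stood at 160, 98.3 and 146 CPM in AL + PBS and at 243, 251 and 243 CPM in IF + NaIO3 (log2 difference 0.87, SE 0.14, edgeR adjusted p = 0.0948, DESeq2 adjusted p = 6.75e-08). The groups were well apart, and the 3 IF + PBS libraries, at 251, 267 and 215 CPM, lay with IF + NaIO3. Arr3 was called by edgeR on the 6 libraries with no filter on low counts (adjusted p 0.0306), and also without AL + PBS replicate 1, without AL + PBS replicate 2 and without IF + NaIO3 replicate 3.

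Opn1mw, the green cone opsin, stood at 114, 105 and 104 CPM against 150, 163 and 140 CPM (log2 difference 0.48, SE 0.08, edgeR adjusted p = 0.1). Here IF + PBS, at 95.9 to 109 CPM, lay with AL + PBS. Opn1sw, the short-wavelength cone opsin, overlapped at 418, 340 and 424 CPM against 375, 398 and 368 CPM (log2 difference -0.05, edgeR adjusted p = 0.853). Its direction turned when AL + PBS replicate 3 was left out.

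Gngt2, the cone transducin gamma subunit, was at 47.7, 56.3 and 54.6 CPM against 82.2, 81.9 and 53.9 CPM (log2 difference 0.46, edgeR adjusted p = 0.29), so its IF + NaIO3 replicate 3 lay within AL + PBS. Cngb3, a subunit of the cone channel, was at 26.5, 29.9 and 34.9 CPM against 37.2, 44.8 and 35.9 CPM (log2 difference 0.37, edgeR adjusted p = 0.318), without overlap. Its partner subunit Cnga3 was lower without overlap, at 13.1 to 14.1 CPM against 11.2 to 12.8 CPM (log2 difference -0.22, edgeR adjusted p = 0.548). The other 4, Gnat2, Gnb3, Pde6c and Pde6h, had log2 differences of 0.11, -0.15, -0.12 and -0.02 and edgeR adjusted p between 0.593 and 0.945. The summed level of the 10 genes was 1305 to 1531 CPM in AL + PBS and 1562 to 1639 CPM in IF + NaIO3.

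Rod genes split in both directions as well. Of 19 tested rod phototransduction genes, 7 were higher and 12 lower, with a median of -0.01, and 3 higher and 6 lower had an unadjusted p under 0.05. Rcvrn, recoverin, a calcium sensor of photoreceptors, stood at 834, 835 and 818 CPM in AL + PBS and at 591, 521 and 614 CPM in IF + NaIO3 (log2 difference -0.53, SE 0.08, edgeR adjusted p = 0.0524). It missed the edgeR threshold narrowly, and its fold lies under 1.5. Gngt1, the rod transducin gamma subunit, was higher at 636, 802 and 695 CPM against 1120, 1191 and 915 CPM (log2 difference 0.59, SE 0.11, edgeR adjusted p = 0.104, called by DESeq2).

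Sag was at 4365, 4479 and 4548 CPM against 6194, 6782 and 5465 CPM (log2 difference 0.46, edgeR adjusted p = 0.1). Rgs9, which speeds the shut-off of transducin, was at 339, 321 and 380 CPM against 206, 237 and 291 CPM (log2 difference -0.51, edgeR adjusted p = 0.186). These 4 genes did not overlap between the groups. The 14 rod outer segment and transcription factor genes had a median of -0.04, and the 26 markers of inner retinal neurons one of 0.05.

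**Figure D3:**
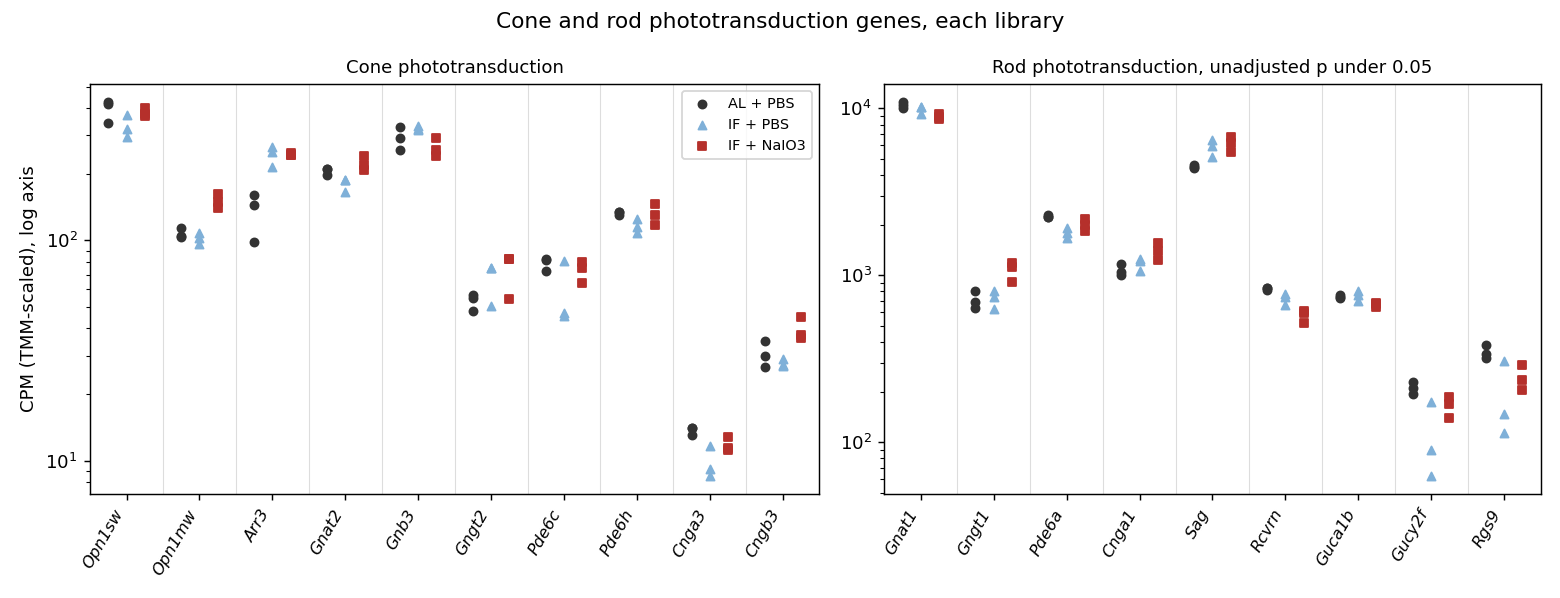
TMM-scaled CPM on log axes of the 10 tested cone phototransduction genes (left) and the 9 rod phototransduction genes with an unadjusted p under 0.05 (right), 1 point per library for AL + PBS, IF + PBS and IF + NaIO3. The 3 IF + NaIO3 points of Arr3 and Opn1mw lie above AL + PBS, and those of Rcvrn lie below it (521 to 614 CPM against 818 to 835 CPM).

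MHC class I genes were close to the AL + PBS level. Of 14 listed genes, 9 were tested, 3 higher and 6 lower, with a median of -0.16. At an unadjusted p under 0.05, 2 were lower. H2-T23, a non-classical class I chain, was at 14.2, 9.61 and 9.76 CPM against 8.09, 8.21 and 6.96 CPM (log2 difference -0.53, edgeR adjusted p = 0.334), and its groups did not overlap. B2m, the light chain shared by class I molecules, was at 55.2, 58.0 and 66.5 CPM against 45.8, 55.4 and 45.8 CPM (log2 difference -0.29, edgeR adjusted p = 0.332).

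The classical chains H2-K1 and H2-D1 overlapped between the groups. H2-K1 was at 21.6, 25.8 and 26.5 CPM against 32.3, 30.8 and 23.6 CPM (log2 difference 0.23, edgeR adjusted p = 0.532), and H2-D1 at 21.0, 16.6 and 34.1 CPM against 18.1, 18.1 and 18.2 CPM (log2 difference -0.40, edgeR adjusted p = 0.476). The other 5, H2-Q4, H2-Q6, H2-T22, H2-T24 and H2-M3, had log2 differences of 0.40, 0.10, -0.07, -0.16 and -0.17 and edgeR adjusted p between 0.479 and 0.959. H2 genes are near copies of each other, so reads may be divided between them and single values are uncertain. The median became -0.07 without AL + PBS replicate 3 and -0.05 without IF + NaIO3 replicate 2. The 13 genes that cut and load class I peptides had a median of -0.05, with Psme2, a proteasome activator, 0.31 higher (edgeR adjusted p = 0.401). That median turned to 0.10 without AL + PBS replicate 1 and was -0.11 without IF + NaIO3 replicate 1.

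MHC class II genes were lower. Of 12 listed, 8 were tested and 7 of these were lower, with a median of -0.60, 4 lower at an unadjusted p under 0.05 and 5 below AL + PBS without overlap. Cd74, the invariant chain, stood at 8.04, 11 and 11.3 CPM in AL + PBS and at 4.50, 3.80 and 3.95 CPM in IF + NaIO3 (log2 difference -1.31, SE 0.20, edgeR adjusted p = 0.0524, DESeq2 adjusted p = 5.58e-06). IF + PBS lay between and partly within AL + PBS, at 6.29, 5.22 and 9.69 CPM. Cd74 was called by edgeR on the 6 libraries with no filter on low counts (adjusted p 0.0306) and with a filter of 10 counts in each library (0.0475), and also without AL + PBS replicate 1 or without IF + NaIO3 replicate 3.

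The chains themselves were low in every library of both groups. H2-Aa was at 3.04, 3.12 and 4.80 CPM against 2.52, 2.45 and 1.39 CPM (log2 difference -0.78, SE 0.31, edgeR adjusted p = 0.364). H2-Ab1 was at 3.07, 2.69 and 2.27 CPM against 1.81, 1.41 and 1.25 CPM (log2 difference -0.85, SE 0.30, edgeR adjusted p = 0.334). H2-Eb1 was at 1.95, 2.95 and 3.02 CPM against 1.72, 1.27 and 0.624 CPM (log2 difference -1.13, SE 0.39, edgeR adjusted p = 0.324).

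All 3 chains lay below AL + PBS without overlap. The median of the list stayed between -0.65 and -0.53 when each library was left out. Ctss, a protease that trims the invariant chain and that macrophages share, was level at a log2 difference of 0.03. The summed level of the tested and untested class II genes was 33.7 to 41.0 CPM in AL + PBS, 28.4 to 37.4 CPM in IF + PBS and 24.9 to 28.5 CPM in IF + NaIO3.

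The RefSeq table (GRCm38.p6) held promoters for 9 of the 12 class II genes. At least 3 of these contained the Y box, the letters CTGATTGG on either strand, which the factor NF-Y binds. The promoter of Cd74 was left out of the search for matches, so 3 is a lower limit. The motif was in 1346 of 32851 promoters (4.10%). The matches of the 2 tested chains are shown in capitals, for H2-Aa at chr17:34287774-34288073 (minus strand) and H2-Eb1 at chr17:34305617-34305916 (plus strand).
H2-Aa: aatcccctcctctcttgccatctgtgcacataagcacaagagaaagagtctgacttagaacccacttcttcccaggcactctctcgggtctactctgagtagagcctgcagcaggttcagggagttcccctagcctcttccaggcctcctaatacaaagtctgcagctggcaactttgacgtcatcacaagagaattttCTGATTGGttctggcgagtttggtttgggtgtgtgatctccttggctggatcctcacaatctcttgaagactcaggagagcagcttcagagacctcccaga
H2-Eb1: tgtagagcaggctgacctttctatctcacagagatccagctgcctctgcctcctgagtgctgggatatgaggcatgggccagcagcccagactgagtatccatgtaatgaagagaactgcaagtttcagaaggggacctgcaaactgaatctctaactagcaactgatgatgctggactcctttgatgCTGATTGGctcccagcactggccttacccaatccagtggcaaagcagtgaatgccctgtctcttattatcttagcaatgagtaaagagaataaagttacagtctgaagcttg
The match lay 51 bases before the start in H2-Aa and 62 before it in H2-Eb1, and it describes the letters only.

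**Figure D4:**
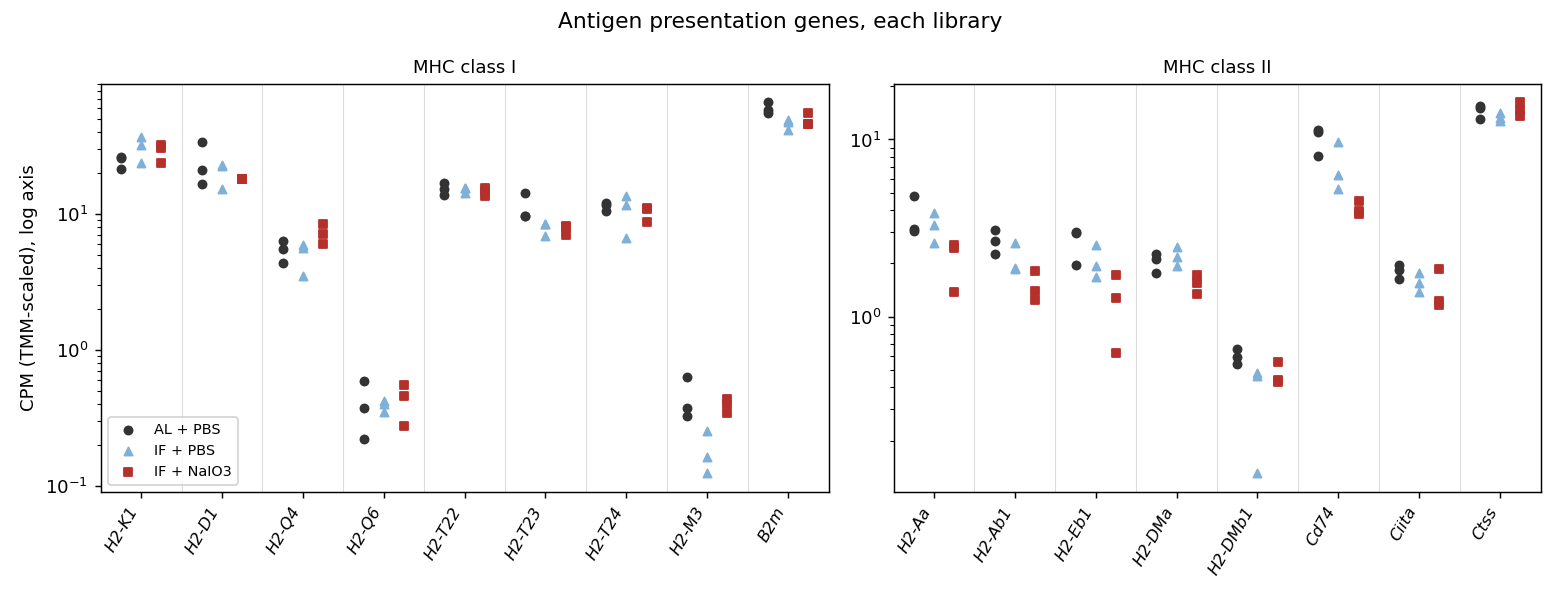
TMM-scaled CPM on log axes of the 9 tested MHC class I genes (left) and the 8 tested MHC class II genes (right), 1 point per library for AL + PBS, IF + PBS and IF + NaIO3. The IF + NaIO3 points of Cd74 (3.80 to 4.50 CPM) lie below those of AL + PBS (8.04 to 11.3 CPM), while most class I genes overlap.

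Markers of immune cells were measured beside the class II genes. Of 21 tested microglia and macrophage genes 13 were lower, with a median of -0.03 and a summed level of 127 to 146 CPM in AL + PBS and 125 to 147 CPM in IF + NaIO3. Lyz2, lysozyme of macrophages, was the one gene with an unadjusted p under 0.05, at 12.1, 12.5 and 18.2 CPM against 10.01, 7.47 and 8.31 CPM (log2 difference -0.73, edgeR adjusted p = 0.234, called by DESeq2). Lymphocyte markers summed to 1.35 to 2.40 CPM and 0.693 to 1.65 CPM, and 3 of 12 were tested, with log2 differences of -0.70 for Cd4, -0.76 for Cd8a and 0.20 for Cd79a (median -0.70, edgeR adjusted p 0.671 to 0.923) at levels under 1 CPM. The lymphocyte median was -0.23 without IF + NaIO3 replicate 3 and -0.95 without AL + PBS replicate 2. The part of these cells in the class II difference was not tested.

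Interferon-stimulated genes were lower in 31 of 33 tested, with a median of -0.40 and 4 at an unadjusted p under 0.05. Ifit3, an antiviral protein, was at 57.6, 24 and 20.5 CPM in AL + PBS and at 19.2, 21.5 and 17.3 CPM in IF + NaIO3 (log2 difference -0.82, edgeR adjusted p = 0.346). Isg15, a ubiquitin-like protein, was at 7.91, 2.62 and 2.82 CPM against 1.32, 1.87 and 2.36 CPM (log2 difference -1.27, edgeR adjusted p = 0.318). AL + PBS replicate 1 was the high library in both, and without it the median of the list was -0.08.

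Glial genes were measured in lists of homeostatic and reactive Müller genes. All 11 homeostatic Müller glia genes were slightly lower, with a median of -0.12 and log2 differences from -0.19 to -0.02, among them Glul, glutamine synthetase (-0.18, edgeR adjusted p = 0.364). Of 16 reactive Müller genes, 7 were higher and 9 lower, with a median of -0.05, and 3 were lower and 0 higher at an unadjusted p under 0.05. Those 3 were Edn2, Serpina3n (log2 difference -0.60) and Bcl3, which had the widest log2 difference of the list, -1.56, at levels under 1.5 CPM (edgeR adjusted p = 0.344), and the groups overlapped for Serpina3n and Bcl3. Edn2, endothelin 2, a stress signal of photoreceptors, was at 3.01, 5.03 and 4.20 CPM against 2.24, 2.12 and 2.11 CPM (log2 difference -0.92, edgeR adjusted p = 0.257). Of 17 complement genes, 13 were lower, with a median of -0.19. It became -0.32 without AL + PBS replicate 3 and -0.13 without IF + NaIO3 replicate 3.

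Connective tissue genes were lower as well. Of 15 markers of choroid and sclera stroma, 12 were lower, with a median of -0.46, and 7 were lower at an unadjusted p under 0.05. Lum, lumican, a proteoglycan of collagen fibrils, was at 4.99, 6.09 and 5.91 CPM against 2.47, 2.51 and 3.40 CPM (log2 difference -1.03, SE 0.23, edgeR adjusted p = 0.17, called by DESeq2). Its IF + PBS libraries, at 2.79 to 3.42 CPM, lay with IF + NaIO3.

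Fmod, fibromodulin, was at 22, 21.9 and 27.3 CPM against 13.4, 15.7 and 14.8 CPM (log2 difference -0.70, edgeR adjusted p = 0.121). Unlike for Lum, its IF + PBS libraries, at 9.24, 22.5 and 20.2 CPM, lay on both sides of IF + NaIO3. Of 18 collagens, 13 were lower, 6 of them at an unadjusted p under 0.05. Among the ciliary body and iris genes, Acta2, smooth muscle actin, was at 15.4, 10.2 and 12.8 CPM against 8.26, 5.35 and 5.92 CPM (log2 difference -0.98, edgeR adjusted p = 0.163, called by DESeq2). For Acta2, IF + PBS, at 9.53 to 12.4 CPM, lay above IF + NaIO3 and overlapped AL + PBS. Markers of skeletal muscle were lower in 14 of 14 with a median of -0.81, 4 of them at an unadjusted p under 0.05. None of the 14 separated the groups, and the median ran from -1.40 to -0.46 as single libraries were left out. Whether the amount of stroma or muscle in a dissection had a part in the pigment or class II differences was not tested.

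Metabolic and hormone-responsive lists had medians close to 0. Klf9, a transcription factor induced by glucocorticoids, was at 195, 221 and 206 CPM against 314, 286 and 264 CPM (log2 difference 0.47, SE 0.09, edgeR adjusted p = 0.1). Its IF + PBS libraries, at 260 to 271 CPM, also lay above AL + PBS. Gpx3, a secreted glutathione peroxidase, was at 81.3, 99.2 and 87.9 CPM against 62.9, 71.5 and 53.0 CPM (log2 difference -0.52, edgeR adjusted p = 0.163).

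Medians were -0.02 for 25 antioxidant genes, -0.02 for 20 genes of fat oxidation and ketone metabolism, 0.02 for 17 glucocorticoid and FOXO targets, 0.00 for 24 sterol genes and -0.06 for 18 clock genes. Cpt1b, a carnitine palmitoyltransferase of fat oxidation, was 0.69 higher (edgeR adjusted p = 0.334). The immediate early gene list, of which Dusp4 is a member, had a median of 0.01 over 29 tested genes. Medians were 0.04 for 6 tested chemokines and cytokines, -0.20 for 7 NADPH oxidase genes, -0.23 for 9 genes of the ciliary body and iris and 0.44 for 10 genes of the cornea and surface epithelium. With single libraries left out, the NADPH oxidase median ran from -0.32 to -0.045. That of the ciliary body and iris ran from -0.35 to -0.13. The cornea list summed to 67.4, 95.7 and 127 CPM in AL + PBS and to 236, 111 and 42.5 CPM in IF + NaIO3, so its groups overlapped, and its median was -0.25 without IF + NaIO3 replicate 1.

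The 13 mitochondrially encoded protein genes, looked at after their values were seen, were all higher in IF + NaIO3, by 0.48 to 0.77 on the log2 scale (median 0.61). Each had an unadjusted p under 0.05, and 12 did not overlap between the groups. mt-Cytb, cytochrome b of complex III, was at 5725, 6474 and 5491 CPM against 9314, 11436 and 7678 CPM (log2 difference 0.68, edgeR adjusted p = 0.1, called by DESeq2). Without IF + NaIO3 replicate 3, the library with the smallest mitochondrial share of its group, edgeR called all 13, with adjusted p from 0.00804 (mt-Cytb, mt-Nd4 and mt-Co2) to 0.0321 (mt-Nd4l), and it called none of them when any of the other 5 libraries was left out. The share of mitochondrial counts was 3.86% to 5.14% in IF + PBS and 4.31% to 6.94% in AL + NaIO3.

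**Figure D5:**
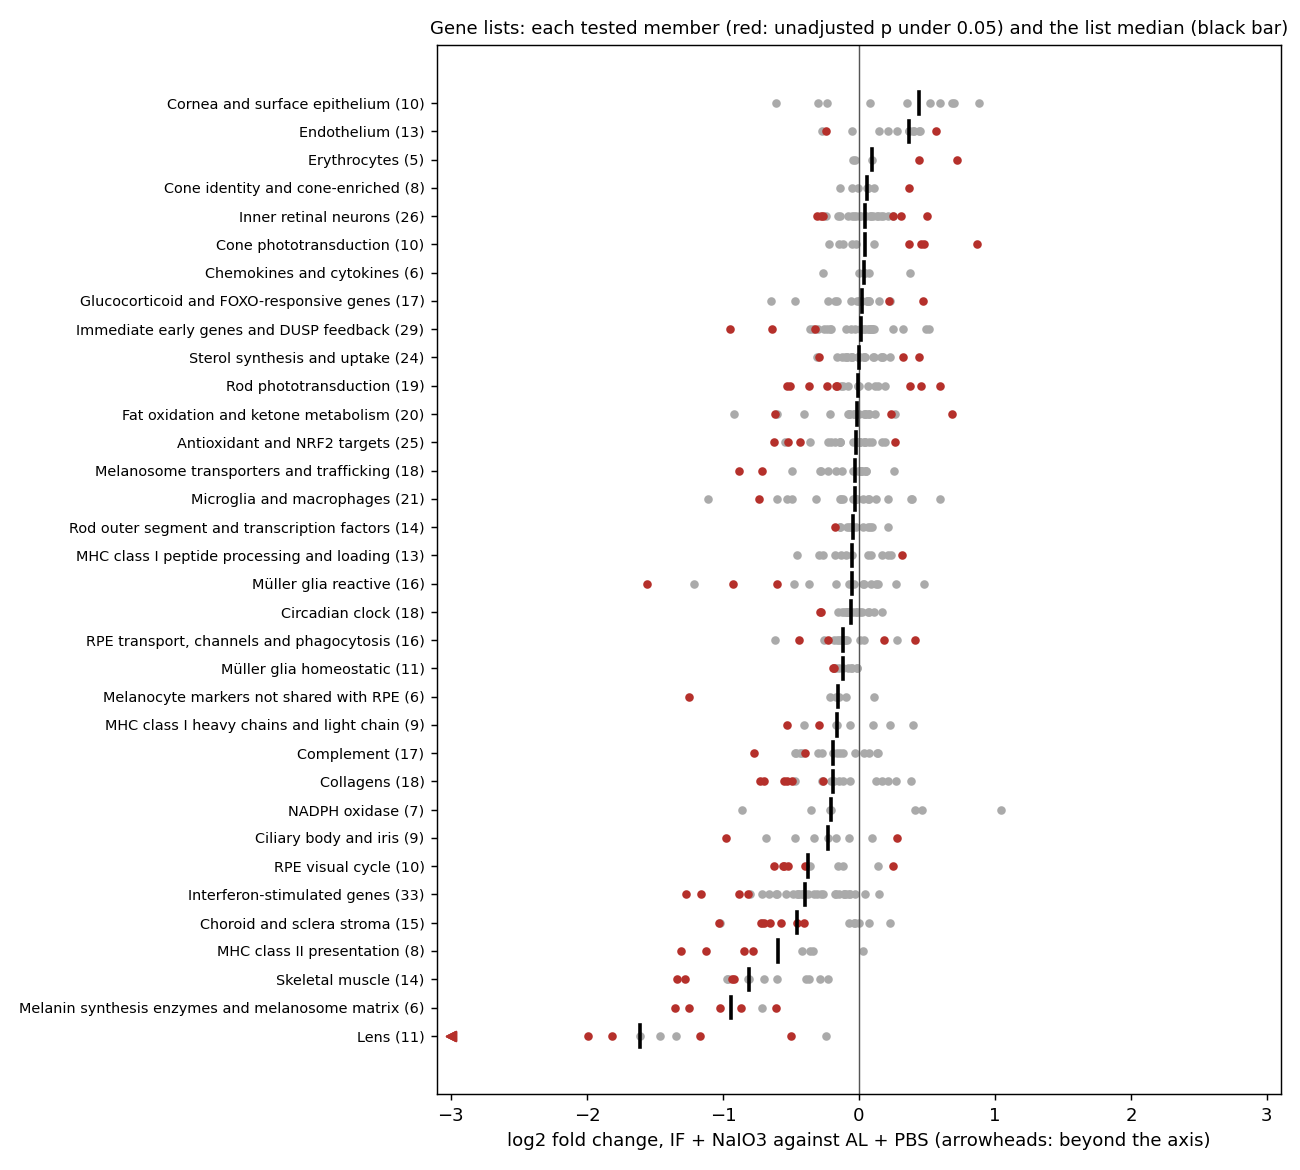
Log2 fold change of IF + NaIO3 against AL + PBS (x axis) for every tested member of the 34 lists with at least 5 tested genes (y axis, number tested in parentheses), red where the unadjusted p is under 0.05, with a black bar at the list median. The melanin (median -0.94) and MHC class II (-0.60) lists lie to the left and cone phototransduction at 0.05, and the lens list (median -1.61) has a median of -0.26 without AL + PBS replicate 2.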

How the data were processed

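Poly-A selected RNA of eye cups was sequenced by the authors with 150-bp reads, single-end per the methods and PE150 per the labels, from a stranded kit per the labels. The authors' processing notes name HISAT2, StringTie, DESeq2, edgeR and GRCm39, without versions. The deposited counts are whole reads per gene, without normalization. The deposited FPKM values, called RPKM in the methods, are the authors' values scaled for gene length and library depth. They were used here to compare levels between genes and as an alternative. They are not the counts over a fixed length per gene. Hipk1, for example, had 110 CPM and 12.0 FPKM in AL + PBS replicate 1. In IF + PBS replicate 1 it had 17.6 CPM and 3.82 FPKM. The counting tool, the annotation and the use of strand are not given in the sources used here. The coordinates in the files match GRCm38: 99.9% of 21221 matched genes overlapped their GRCm38.p6 position and 17.4% of 19667 their GRCm39 position. A deposited table of the authors' fold changes and p-values for IF + NaIO3 against AL + NaIO3 was not used.

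Counts of the 6 libraries were scaled by TMM, filtered with filterByExpr and tested with edgeR 4.0.16 (R 4.3.3), unpaired, with Benjamini-Hochberg adjustment over all tested genes. The thresholds for a call were 0.05 for the adjusted p and 1.5 for the fold. Printed CPM were scaled with TMM factors over the 12 libraries (0.934 to 1.14). The 12 libraries held 26364665 to 43046950 counts, so abundant genes are limited by the spread between samples and genes near 3 counts by counting error. Replicates differed by more than sampling noise (chi-square per gene 13.2 to 238), so none was counted as a duplicate. The scripts were tested on simulated data.

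Alternatives were DESeq2 1.42.0, upper quartile scaling, DESeq2 size factors in edgeR, no filter, a filter of 10 counts in each library, no fold threshold, the replicate number as a block, log2(FPKM + 0.1), a fit of the 4 groups, and each library left out. A fit of 3 groups without AL + NaIO3 was added after the data had been seen. Where 36 symbols were listed more than once, the lists took the one with the higher count.

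The groups, the members and the 36 gene lists were chosen with earlier results of these data known. Genes were named by a rule: the called genes, the 2 genes of each list with the smallest unadjusted p, and each tested gene of the melanin, cone phototransduction and MHC class I lists. Other list members, the mitochondrial genes and Fgf2 were named after their values were seen.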

Additional observations from a re-analysis of the deposited data

Results flagged for a closer look

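Summed levels of the 36 gene lists were examined in the 6 libraries of AL + NaIO3 and IF + PBS, which are not among the 6 compared. A sum was picked out where it reached 5 times the highest AL + PBS library, which happened 8 times, each in an AL + NaIO3 library and none in IF + PBS.

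AL + NaIO3 replicate 3 accounted for 7 of the 8 sums. Its melanin genes summed to 1992 CPM, against at most 324 CPM in AL + PBS, a ratio of 6.15. Reactive Müller glia genes reached 2593 CPM (at most 496 in AL + PBS), microglia and macrophage genes 1394 CPM (at most 146) and MHC class II genes 494 CPM (at most 41), the last a ratio of 12.1. Complement genes reached 767 CPM (at most 145), NADPH oxidase genes 95 CPM (at most 12.4) and lymphocyte genes 13.1 CPM (at most 2.40). AL + NaIO3 replicates 1 and 2 were under the limit in these lists. Their class II sums of 111 and 115 CPM were still above AL + PBS. So were their reactive Müller sums (1106 and 1229 CPM) and microglia and macrophage sums (422 and 284 CPM). The same held for complement (297 and 260 CPM), NADPH oxidase (27.5 and 25.1 CPM) and lymphocyte genes (5.13 and 5.08 CPM). Their melanin sums, 238 and 191 CPM, were not. In AL + NaIO3 replicate 2, genes of the cornea and surface epithelium summed to 741 CPM, against at most 127 CPM in AL + PBS. The common biological coefficient of variation was 0.238 in the 4-group fit, which holds these libraries, and 0.157 in the fit of the 6 libraries.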

How the results depend on the processing

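The 7 calls became 75 with DESeq2, 13 with the replicate block and 0 in the fit of 3 groups, and the cause was not tested. With each of the 6 libraries left out, between 3 (without IF + NaIO3 replicate 2) and 55 (without IF + NaIO3 replicate 3) genes were called, with 17 without AL + PBS replicate 1 and 13 without IF + NaIO3 replicate 1. The other alternatives gave 6 to 10 calls. The share of calls that were higher was 57.1%, but 44% with DESeq2 and 38.5% with the block. The fit of the 4 groups, with 0 calls, had 6 with DESeq2, 1 with the replicate block and 0 to 1 as each of the 12 libraries was left out. Same-numbered libraries of the 2 groups correlated at -0.079, 0.038 and -0.019 in their deviations from the group means, so the numbers gave no sign of pairing. The block lost Ip6k2 and added 7 genes in edgeR's test, Pmel (adjusted p 0.00282), Tyrp1 (0.0140), mt-Nd4 and mt-Cytb (both 0.0327) and the lens crystallins Crybb2 (1.82e-05), Cryaa (0.000202) and Cryba1 (0.0424). Crybb2 stood at 80.5 CPM in AL + PBS replicate 2, the library with lens RNA, and at 0 to 2.21 CPM in the other 5.

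With single libraries left out, the median log2 difference lay between -1.26 and -0.81 for the melanin list and between -0.22 and -0.052 for MHC class I. The median over all genes was 0.00 with TMM, -0.01 with upper quartile scaling and 0.01 with size factors. Of the 96 genes picked by the naming rule, not all of them described here, 90 kept their direction in each alternative, and genes named outside the rule were not counted. The other 6 turned only when a library was left out: Opn1sw (-0.15 to 3.79e-05), Pde6h (-0.11 to 0.050), H2-Q6 (-0.17 to 0.48, and -0.11 without IF + NaIO3 replicate 3), H2-T22 (-0.14 to 0.0027), H2-M3 (-0.35 to 0.16) and Cxcl16 (-0.10 to 0.22, and -0.02 without AL + PBS replicate 1).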

Other observations

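Blood and vessel genes, from lists of the same comparison that were not described above, gave the following values. Hba-a2, an alpha globin chain of red cells, was at 7.56, 10.4 and 14.1 CPM in AL + PBS and at 19.8, 18.3 and 14.7 CPM in IF + NaIO3 (log2 difference 0.72, edgeR adjusted p = 0.261, called by DESeq2). Its near copy Hba-a1, with which it can share reads, was at 18.3, 23.8 and 17.5 CPM against 33.3, 26.8 and 21.0 CPM. Of 13 endothelial genes, 10 were higher, with a median log2 difference of 0.37 that became 0.22 without AL + PBS replicate 2, and Eng, an endothelial TGF-beta coreceptor, was at 7.52, 6.68 and 9.16 CPM against 12.4, 8.82 and 13.5 CPM (edgeR adjusted p = 0.332).

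Some genes spread widely within a group, as Hipk1 did in IF + PBS. Of 10660 genes with a mean of at least 10 CPM, the highest library was at least 4 times the lowest for 19 genes (0.178%) in AL + PBS, 39 (0.366%) in IF + PBS, 139 (1.3%) in AL + NaIO3 and 45 (0.422%) in IF + NaIO3. These counts do not tell separate levels, as in Hipk1, from a graded spread. Fgf2, a growth factor, was at 1.505, 25.7 and 24.96 CPM in AL + PBS and at 18.4, 1.68 and 2.29 CPM in IF + NaIO3.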
